A study of Caenorhabditis elegans with 6 samples.

Results

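Peaks of MBL-1 RNA immunoprecipitation were examined in 7 genes of the muscle sarcomere and of the membrane and matrix structures that hold cells in place. The contractile genes were act-4 (actin), lev-11 (tropomyosin), mlc-1 and mlc-3 (myosin light chains). The other genes were unc-70 (beta spectrin), vab-10 (spectraplakin) and epi-1 (a laminin alpha chain). They were chosen from genes that held a peak in these data, 7 of the 166 protein-coding genes with a peak summit inside their annotated span in any list. Of 459 summits in all lists, 23 lay in the 7 genes. Because the choice used the peaks themselves, the values are given as a description, and no difference between genes or gene groups was tested.

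The samples were whole Caenorhabditis elegans larvae of the L4 stage, synchronised by bleaching and grown at 20 °C on OP50 bacteria. All animals carried the genotype mbl-1c(syb5299), given in the design as a 3xFLAG tag on MBL-1. The 6 samples formed 2 groups of 3, total RNA of the animals (RNA input) and the RNA precipitated by an antibody against FLAG (IP). Each of 3 peak lists set 1 IP against the input of the same number, and animals without the tag were not analysed here. Whether the replicates were separate cultures is not given in the labels, and recurrence between lists may therefore be technical.

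Muscleblind proteins, of which MBL-1 is the C. elegans member, are zinc-finger proteins that bind RNA and regulate alternative splicing. In Drosophila, muscleblind is required for normal muscle differentiation, including the Z-bands that anchor thin filaments. Thin filaments consist of actin with tropomyosin wound along it, and myosin light chains bind the lever arm of the motor that pulls on them. Spectrin forms a lattice under the plasma membrane, spectraplakins tie cytoskeletal filaments to attachment sites, and laminins build the basement membrane between muscle and epidermis.

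The following quantities are used for each summit, the point of highest coverage within a peak. IP tags are the aligned IP reads, extended to about the fragment length, that cover the summit. The local input level is the number of input tags that the authors' peak caller expected there, with a floor at the genome-wide background of 0.220, 0.228 and 0.184 tags in lists 1, 2 and 3. Fold enrichment is the authors' ratio of scaled IP coverage plus 1 to input level plus 1. Where the input is at the floor, the denominator was set by that background. After removal of duplicates the IP samples held 39033 to 49827 tags and the inputs 30707 to 38364 tags, so each value below rests on few reads. Intervals of 95% are exact Poisson intervals of the IP tags and cover their counting error only. For folds the input level was held fixed, so its own counting error is left out.

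The contractile genes had more IP tags at their summits and higher local input levels than the spectrin, spectraplakin and laminin genes. Fold enrichments of the 2 groups covered much the same range. At the 14 contractile summits the IP held 8 to 18 tags, with a median of 12.5, against 3 to 7 tags and a median of 5 at the 9 other summits. The local input level was 0.603 to 5 tags at contractile summits and 0.183 to 0.407 at the others. Neither quantity overlapped between the groups. The tags and the input are not independent here, because the caller required more tags where the input was higher. It required 6 to 17 tags at the input levels of the contractile summits and 3 to 4 at those of the others. Summits with fewer tags could not enter a list, so the separation in tags is not read as a trait of the genes. Fold enrichment was 2.48 to 6.87 with a median of 4.58 at contractile summits, and 2.70 to 5.44 with a median of 3.95 at the others. Over all 381 summits in coding genes the median was 8 IP tags, with quartiles of 5 and 16, and the median fold enrichment was 5.19. By list, the median folds in lists 1, 2 and 3 were 4.72, 4.44 and 4.51 at contractile summits, 4.41, 4.26 and 3.94 at the others, and 6.09, 5.20 and 4.50 over coding genes. Both groups lay below the coding median in lists 1 and 2, and in list 3 the contractile median was about equal to it.

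**Figure D1:**
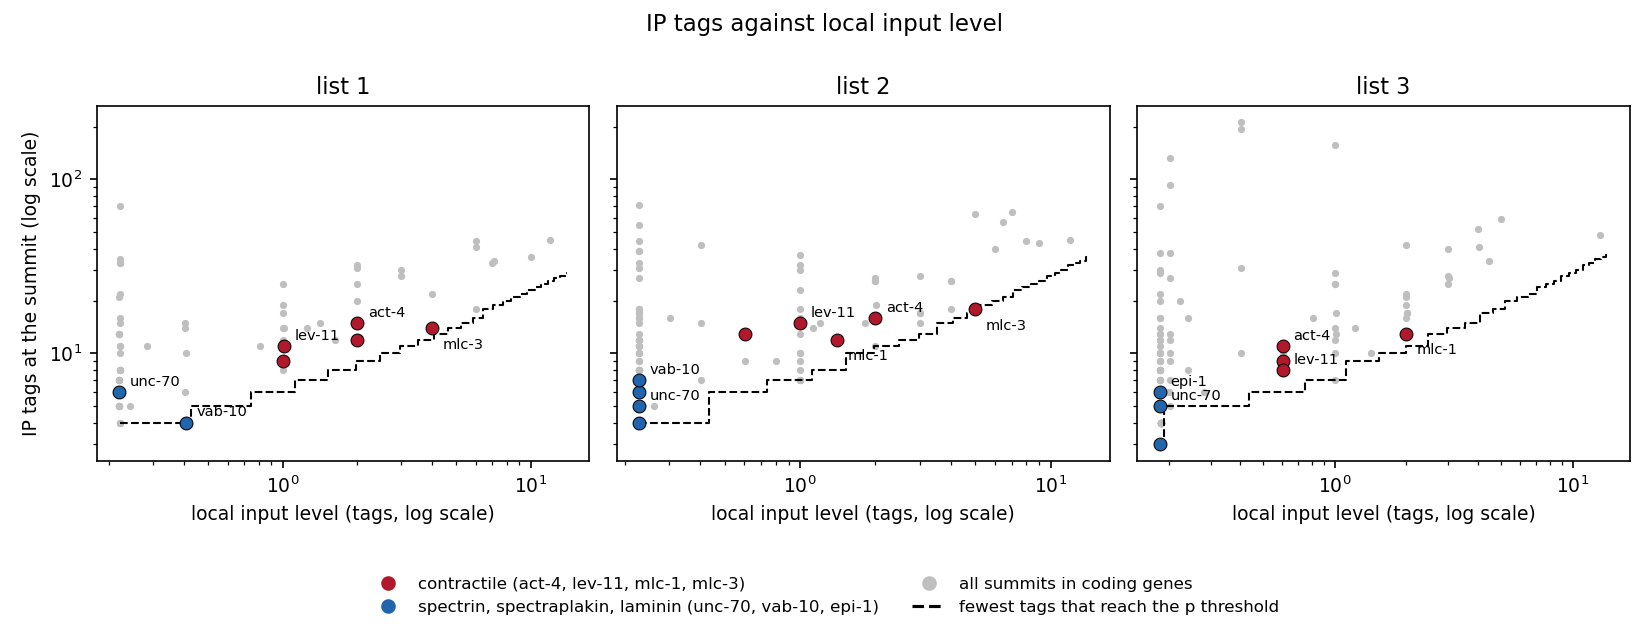
IP tags at the summit (log scale) against the local input level in tags (log scale) in lists 1, 2 and 3, with all summits in coding genes in grey and the fewest IP tags that reach the p threshold of the caller as a dashed line. Contractile summits lie at 8 to 18 IP tags and spectrin, spectraplakin and laminin summits at 3 to 7, the latter at the left edge where the input is at or near its floor.

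The input level lay above the genome-wide background at all 14 contractile summits and at 1 of the 9 other summits, in vab-10. At the other 8 the level was set by the background, which does not show that no input read lay nearby. Over all summits in coding genes, 37.5% had an input level above the background. IP tags were also more numerous at coding summits with input above the background in general. Their medians were 14, 16.5 and 17 tags in lists 1, 2 and 3, against 7, 8 and 5 at summits with input at the background. The contractile medians in lists 1, 2 and 3 were 12, 15 and 10 tags. In whole animals, more cells that make a transcript and more of it per cell cannot be told apart.

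The number of tags needed for a peak depended on the input. At the background, 4, 4 and 3 IP tags reached the caller's p of 0.001 in lists 1, 2 and 3, and at an input level of 2 tags 9, 11 and 11 were needed. Contractile summits lay 1 to 8 tags above the fewest that would have been called at their own input level, with a median of 3.5. The other summits lay 0 to 3 tags above it, with a median of 2, and 3 of them, 1 in unc-70 and 2 in vab-10, had exactly the fewest. The median over all coding summits was 4.

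Of the 7 genes, 5 had a peak in list 1, 6 in list 2 and 5 in list 3, where 0.37%, 0.465% and 0.636% of the 19983 annotated coding genes had one. Over all lists together 0.831% of coding genes had a peak. Peaks occurred in at least 2 lists in 6 of the 7 genes and in all 3 lists in 3 of them. The corresponding shares of the 166 coding genes with a peak were 49.4% and 27.7%. The choice of genes used this recurrence, so nothing is read from the difference. At a q of at most 0.05, 2 of the 7 genes, act-4 and lev-11, were in at least 2 lists. Without replicates 1, 2 and 3 in turn, 4, 3 and 5 of the 7 had peaks in both lists that were left. The matching shares of coding genes were not computed for these counts, so nothing is read from them.

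Among the thin-filament genes, act-4 and lev-11 each had peaks in all lists that overlapped between lists. act-4 (M03F4.2; WBcel235, chromosome X, 4960621 to 4964413) encodes an actin of muscle and other tissues. Its peaks merged into 1 region of 739 bp at 4963625 to 4964363, near the high-coordinate end of the gene. List 1 placed 2 summits there with 15 and 12 IP tags, list 2 placed 1 summit with 16 tags, and list 3 placed 2 summits with 11 and 9 tags. The local input level was 2.00 tags at the summits of lists 1 and 2, and lower, 0.605 and 0.607 tags, at those of list 3.

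Fold enrichment at the act-4 summits was 5.03 and 4.09 in list 1, 4.44 in list 2, and 5.65 and 4.74 in list 3. The strongest summits of the lists averaged 5.04 ± 0.605 (SD, n = 3). They lay up to 362 bp apart, so this is not the mean of 1 place. Counting intervals of the fold were wide, for example 2.96 to 8.08 at the strongest summit of list 1, and the 3 lists differed by less than these intervals. The summits fell at a pair of places. One was at 4963893 in list 1 and 4963928 in list 3, which are 35 bp apart. The second was at 4964216, 4964255 and 4964222 in lists 1, 2 and 3, all within 39 bp, with folds of 4.09, 4.44 and 4.74.

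lev-11 (Y105E8B.1; chromosome I, 14621169 to 14631094) encodes the tropomyosins, which cover actin and set its access to myosin. It had 2 separate regions, about 7 kb apart and on either side of the middle of the gene. At 14623384 to 14623840, summits of lists 1, 2 and 3 had 11, 13 and 8 IP tags over input levels of 1.02, 0.603 and 0.606 tags. Their folds of 5.62, 6.87 and 4.28 averaged 5.59 ± 1.29 (SD, n = 3), with list 2 the highest and list 3 the lowest. These summits lay within 87 bp of each other.

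The second lev-11 region, at 14630581 to 14630863, was in lists 1 and 2 alone. It had 9 and 15 IP tags over input levels of 1.00 in each list, with folds of 4.72 and 6.27 and summits only 14 bp apart. It lay 353 to 367 bp from the high-coordinate end of the gene. The counting intervals of its folds, 2.43 to 8.52 and 3.73 to 10.02, overlapped. List 3 had no peak here, and an input level of 1 tag would have required 7 IP tags there. The lev-11 summits of list 2 had the only −log10 q values of at least 5 among the 7 genes, 6.26 and 5.17.

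The myosin light chain genes had peaks in 2 lists each, and within each gene the peaks did not overlap. mlc-1 (C36E6.3; chromosome X, 17459210 to 17460778) encodes a regulatory light chain. It had 12 IP tags over an input level of 1.41 in list 2 and 13 tags over 2.00 in list 3, with folds of 4.25 and 3.51. The peaks, at 17460396 to 17460614 and at 17459957 to 17460272, were separated by 123 bp, and list 1 had none.

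mlc-3 (F09F7.2; chromosome III, 5565025 to 5567007) encodes an essential light chain. It had the highest input of the 7 genes, the summit with the most IP tags, and the lowest fold of the contractile genes in either list. List 1 had 14 tags over an input level of 4 at 5565319 to 5565521, with a fold of 2.83. List 2 had 18 tags over 5 at 5566657 to 5566857, with a fold of 2.48. These were 1135 bp apart at opposite ends of the gene, and list 3 had no peak. The fold of 2.48 was the lowest of all summits in coding genes in list 2, and its 18 tags were 1 above the 17 that the caller required at that input.

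Actin genes and the mlc-1 and mlc-2 pair have near-identical copies elsewhere in the genome. The alignment files have the abbreviation uni in their names, and reads shared with a copy may have been dropped or placed on one of them, so the values of act-4 and mlc-1 are uncertain in this respect. None of the act-1, act-2, act-3 or mlc-2 genes held a summit. Without act-4 and mlc-1 the contractile group kept a median of 13 IP tags and a median fold of 4.72, from 7 summits that all had input above the background.

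**Figure D2:**
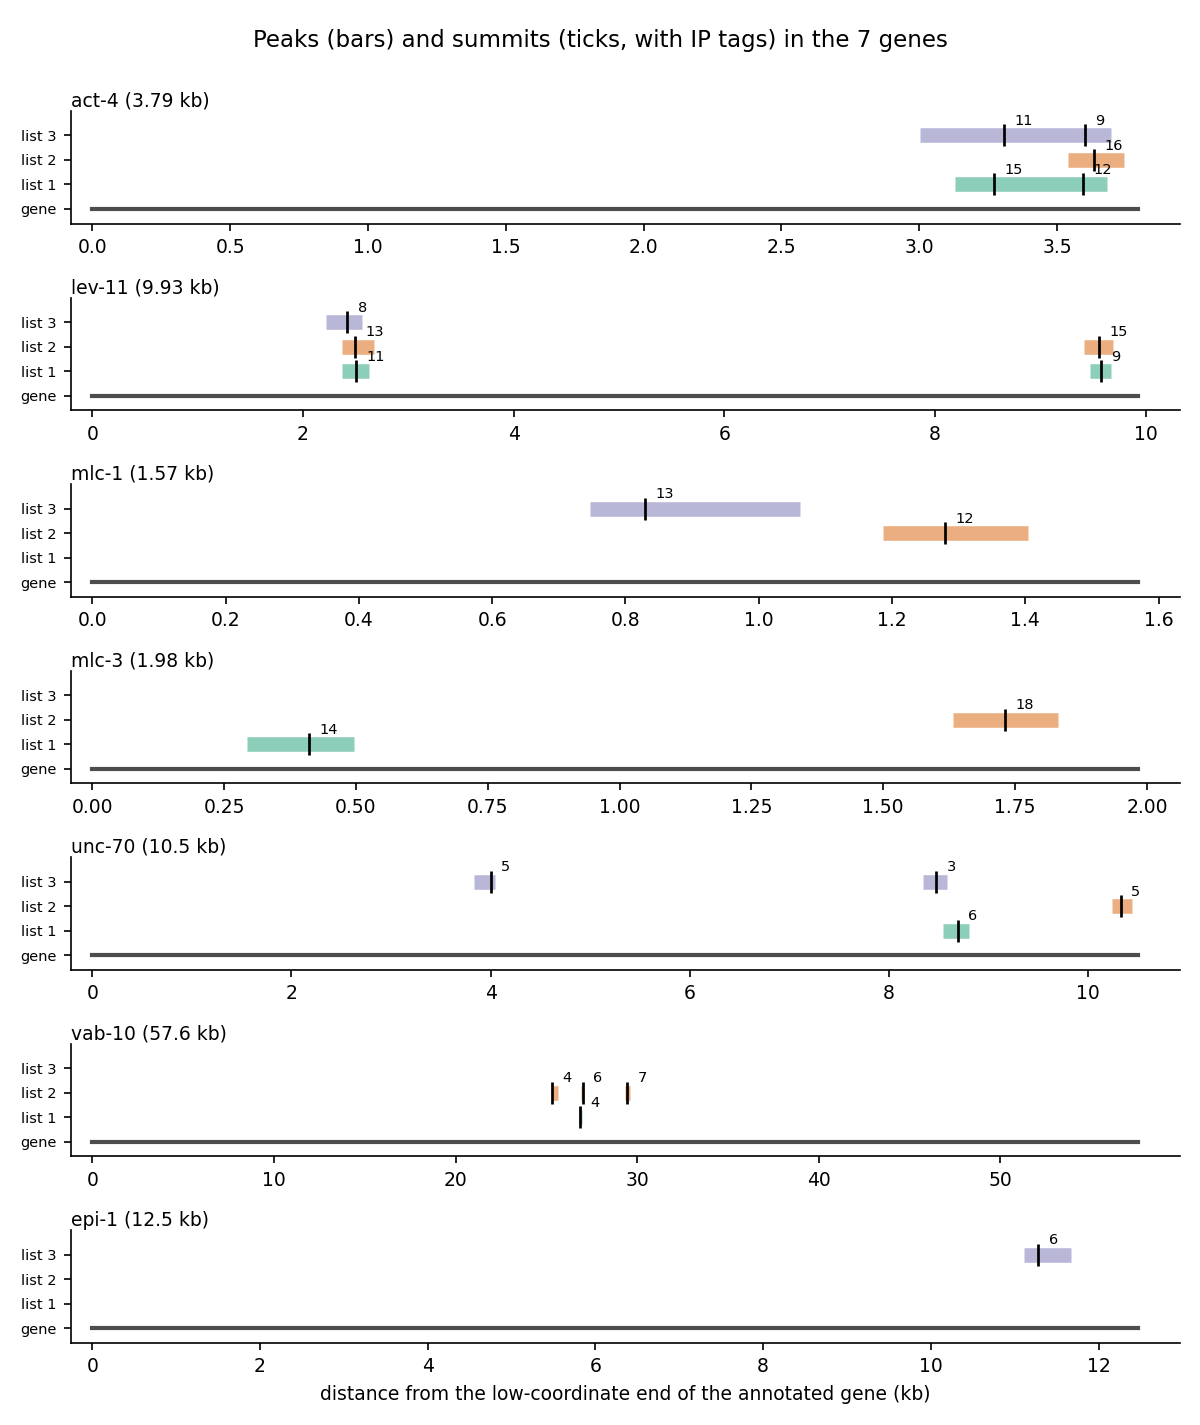
Positions of peaks (bars, coloured by list), summits (ticks) and their IP tags (numbers) along each of the 7 genes, drawn to the scale of each gene as distance in kb from the low-coordinate end of the annotated span. Peaks of the 3 lists stack at the end of act-4 and at the first place in lev-11, whereas those of mlc-1 and mlc-3 do not overlap and those of unc-70 and vab-10 overlap at 1 place each.

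The spectrin and spectraplakin genes had peaks spread over several places with few reads at each. unc-70 (K11C4.3; chromosome V, 6881338 to 6891839) encodes beta spectrin, which supports the membranes of neurons, muscle and epidermis. It had 3 regions. The one shared by lists 1 and 3, at 6889678 to 6890148, had 6 and 3 IP tags and folds of 5.44 and 2.70, with summits 214 bp apart and an overlap of 33 bp. List 2 had a peak only at 6891576 to 6891776, 170 bp from the high-coordinate end by its summit, with 5 tags and a fold of 3.95. List 3 had another at 6885171 to 6885378 with 5 tags and a fold of 3.94.

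All 4 unc-70 summits had input at the background, so the folds follow from the IP tags and the floor. The counting interval of 3 tags is 0.619 to 8.77 and that of 6 tags 2.20 to 13.1. These intervals overlap, and a difference between the lists was not tested. The summit of list 3 with 3 tags had a −log10 p of 3.05, the lowest of the 7 genes and just inside the caller's threshold of 3.

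vab-10 (ZK1151.1; chromosome I, 11747424 to 11804991) is a long gene whose alternative products include a plakin of epidermal attachment structures and a relative of microtubule-actin crosslinking factor. All its summits fell within the middle of the gene, 44% to 51.2% of the way from the low-coordinate end. Lists 1 and 2 shared 1 region at 11774208 to 11774522, with 4 and 6 IP tags, folds of 3.38 and 4.57 and summits 125 bp apart. List 2 had 2 more peaks, at 11772683 to 11773038 with 4 tags and a fold of 3.32, and at 11776758 to 11777018 with 7 tags and a fold of 5.20. List 3 had none in this gene.

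epi-1 (K08C7.3; chromosome IV, 10666823 to 10679291) encodes a laminin alpha chain of basement membranes. It had a peak in list 3 alone, at 10677938 to 10678488, with 6 IP tags over input at the background and a fold of 4.56 (counting interval 2.21 to 8.95). Lists 1 and 2 would have needed 4 tags at the background to call a peak. The peak of epi-1 therefore has no replicate among these lists.

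**Figure D3:**
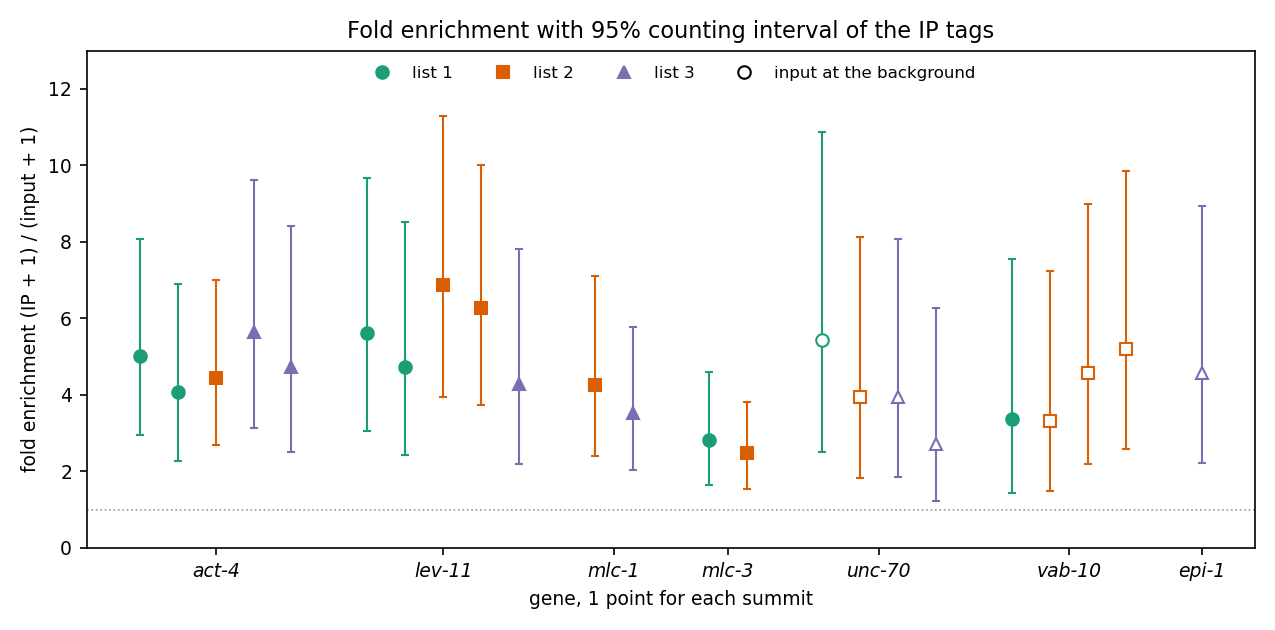
Fold enrichment, (IP + 1) / (input + 1), at each summit of the 7 genes by list, with bars for the 95% counting interval of the IP tags and open symbols where the input was at the background. Contractile folds of 2.48 to 6.87 and spectrin, spectraplakin and laminin folds of 2.70 to 5.44 overlap, and the intervals of lists within a gene overlap as well.

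Overlap between lists is given by peak pair and by gene. Of 13 peak pairs that joined 2 lists within a contractile gene, 7 overlapped, 3 of 3 in act-4, 4 of 8 in lev-11 and 0 in mlc-1 and mlc-3. In unc-70 and vab-10, 2 of 8 pairs overlapped. Over all coding genes 42% of 474 such pairs did. By gene, 2 of the 4 contractile genes (act-4 and lev-11) and 2 of 2 others (unc-70 and vab-10) in at least 2 lists had an overlapping pair, against 90.2% of the 82 coding genes in at least 2 lists. The order of the groups thus differed between the counts by pair and by gene. The members were chosen on these lists and the difference was not tested. Under a reciprocal overlap of at least 50%, 3 contractile regions and 0 others were shared. With a rule of summits within 200 bp, 4 contractile regions and 1 other were shared. Neither rule was applied to all coding genes, so nothing is read from these counts.

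Summits of the contractile genes had a median position of 86.7% along the annotated span from its low-coordinate end, and those of the other genes 51.2%. Past 80% of the span lay 9 of 14 contractile and 4 of 9 other summits, against 19.8% of 394 in coding genes, where a summit is counted once for each coding gene that holds it. These summits are not separate places, because a place is counted again in each list. All 5 act-4 summits, in 1 region, lay past 86%, as did the second lev-11 region, counted in lists 1 and 2. Without act-4 and mlc-1 the contractile median was 25.2%. Without replicate 2 the median of the other genes was 80.7%. The gene table has no strand or exons, so these positions do not say which end of the transcript was near, or whether a summit was exonic.

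Few of these summits were strong by the caller's q value, which adjusts the Poisson p of each list. At a q of at most 0.05 were 10 of 14 contractile summits and 4 of 9 others, against 69.8% of all coding summits. At a −log10 q of at least 5 were the 2 lev-11 summits of list 2 and none of the other 21, against 36.5% of coding summits. All 5 act-4 summits had a q of at most 0.05, and neither mlc-3 summit did. With this threshold 10 contractile summits and 3 shared contractile regions were left, with 1 of the summits, in mlc-1, outside the shared regions. The other genes kept 4 summits and 0 shared regions. Shared regions at this threshold were not counted over all coding genes. The median folds were then 4.88 and 4.89.

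**Figure D4:**
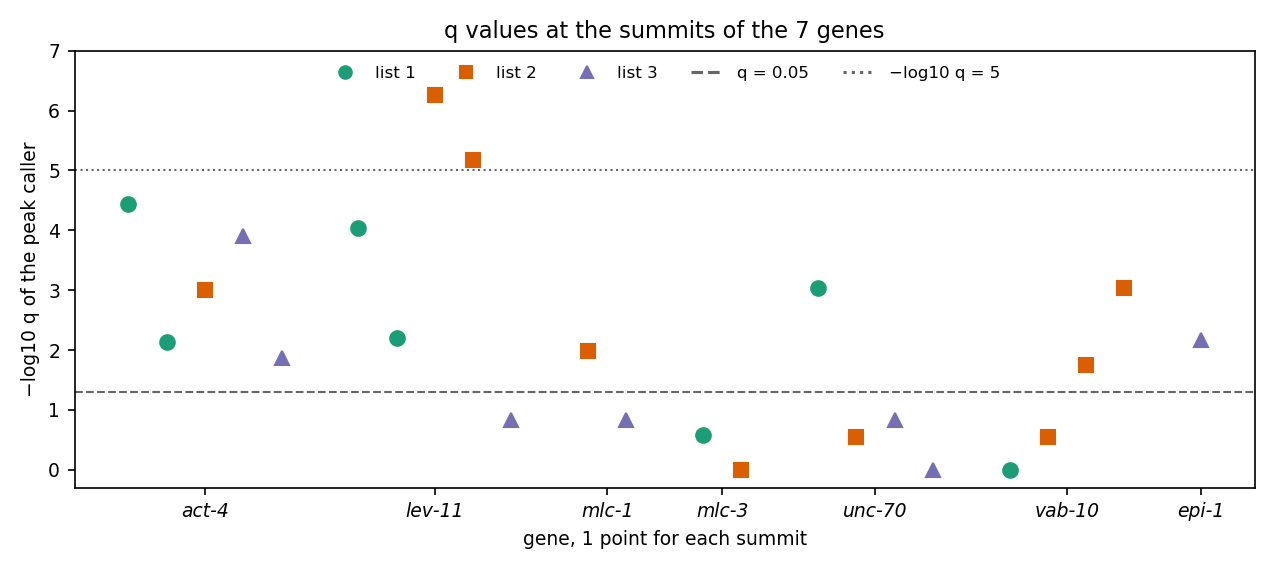
The −log10 q of the authors' caller at each summit of the 7 genes by list, with lines at q = 0.05 and at −log10 q = 5. All act-4 summits lie above the first line, only 2 lev-11 summits of list 2 lie above the second, and both mlc-3 summits lie below the first.

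The spectrin, spectraplakin and laminin genes were longer than the contractile genes, and had more annotated transcripts than act-4, mlc-1 and mlc-3 but fewer than lev-11. Their spans were 10.5, 57.6 and 12.5 kb for unc-70, vab-10 and epi-1, with 4, 14 and 6 RefSeq transcripts. The contractile genes spanned 3.79 kb for act-4, 9.93 kb for lev-11, 1.57 kb for mlc-1 and 1.98 kb for mlc-3. lev-11 stood apart among them with 19 RefSeq transcripts, more than in 99.9% of coding genes, against 2, 1 and 2 for act-4, mlc-1 and mlc-3. The median span was 3246 bp in coding genes with a peak and 1999 bp in those without. At least 4 transcripts were annotated for 13.3% of the former and 4.55% of the latter. No member summit lay inside another annotated gene, and the nearest summit outside any of the spans was 21065 bp away, beyond mlc-1.

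The 5 lists of muscle and attachment genes held 85 names, of which 84 were found in the gene table and 11 had a summit. These were the 7 members and 4 of the 77 other genes (5.19%), beside 0.831% of all coding genes. The lists were drawn up with earlier results of these data known, so nothing is read from this difference, which was not tested. Among 24 thin-filament genes the additional one was clik-1, a calponin-like protein, with 10 IP tags over an input level of 1.00 and a fold of 4.35 in list 2. None of the other 14 myosin and thick-filament genes had a summit, among them the myosin heavy chain genes unc-54 and myo-3. Of the other 6 spectrin, ankyrin and spectraplakin genes, 0 had one, the alpha spectrin gene spc-1 included.

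In the laminin and basement membrane list of 16 genes, agr-1 (agrin) and mig-6 (papilin) had summits beside epi-1. agr-1 had 6 and 5 tags in list 3, with folds of 4.56 and 3.94. mig-6 had 4 tags in list 1 and 4, 5 and 4 tags in list 3. The peaks of mig-6 at 7832221 to 7832476 in list 1 and 7832073 to 7832371 in list 3, on chromosome V, overlapped, with folds of 3.90 and 3.94. Of 20 dense body, M-line and hemidesmosome genes, pat-12, a component of epidermal attachment structures, had 1 summit with 5 tags and a fold of 3.94 in list 3. As at 8 of the 9 spectrin, spectraplakin and laminin summits, input was at the background at the summits of agr-1, mig-6 and pat-12. A peak needed 3 to 4 tags where the input was at the background and more where it was higher, and the input at genes without a peak is not known. The lack of a peak therefore does not show that a transcript was not enriched.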

How the data were processed

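Peak tables of 3 RIP-seq replicates were used, each made by the authors with MACS 2.1.0.20150420 from 1 IP and its input, without pooling, per the file headers (p of 0.001, 1 tag kept per position). BWA, MACS2, DiffBind and WBcel235 are named per the submitters' processing notes. The deposited signal is the pileup of extended IP tags at the summit, scaled to the smaller library. The deposited fold is a ratio of pileup plus 1 to local input plus 1. The deposited −log10 p and q come from a Poisson test, and q values are present despite a header line that none were computed.

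IP tags were recovered as pileup over the scaling factor (whole within 0.02 at all summits), and input levels from pileup and fold. Input within 0.01 of the genome-wide level was called background. The caller's p was recomputed from these values and matched the deposited −log10 p within 0.05 at all 451 summits with a value below 100. It gave the fewest tags a peak needed. Summits were assigned to every gene span holding them, in the RefSeq table of the same assembly, so hosts of small RNA genes count. Peaks sharing at least 1 bp were merged within a gene. All peaks of the 7 genes are named, and every gene of the 5 lists with a summit. Members, lists and alternatives were chosen with earlier results of these data known. Region building was tested on simulated data. Alternatives changed thresholds, gene assignment, overlap rules and weighting, or left out each replicate. Planned work on strand, exons, the YGCY motif and protein identity was not run, since neither sequence nor exons were used here. Scripts ran in Python 3.11.15 with pandas 2.3.3, scipy 1.17.1, numpy 2.4.6 and, for plots, matplotlib 3.10.9.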

Additional observations from a re-analysis of the deposited data

How the results depend on the processing

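Counting any overlap of a peak with the gene, or extending the genes by 500 bp, changed none of the values for either group. At a −log10 q of at least 5, 2 contractile summits were left, both with input above the background, with 0 shared regions, a median fold of 6.57 and a median position of 60.7%, and 0 summits, shared regions or inputs above the background in the other group. These lower counts follow from the filter. At a q of at most 0.05 the median fold was 4.88 for contractile summits. The other group had 4 summits, 0 shared regions, 0 summits with input above the background, a median fold of 4.89 and a median of 6 tags. A fold of at least 4 gave 4.74 for contractile summits, and for the others 4, 0, 0, 4.89 and 6 in the same order.

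Leaving out each replicate gave 9 to 10 contractile summits and the same range with input above the background. For the other group it gave 5 to 7 summits, 0 to 1 shared regions, 0 to 1 summits with input above the background, median folds of 3.94 to 4.26, medians of 5 to 5.5 tags and median positions of 49.0% to 80.7%. Fewer lists give fewer summits and shared regions by construction. The range of 0 to 1 shared regions arises because unc-70 was shared by lists 1 and 3 and vab-10 by lists 1 and 2. In the other group, 50% reciprocal overlap left 0 shared regions and summits within 200 bp left 1. Counting each gene once gave a contractile median fold of 4.31, and the 1 other summit with input above the background had a fold of 3.38. Per 10000 IP tags the median was 2.91 tags at contractile and 1.20 tags at other summits. Leaving out act-4 and mlc-1, an alternative chosen after seeing the data, left 7 summits, all 7 with input above the background, at a median position of 25.2%. A background tolerance of 0.05, also chosen after seeing the data, changed neither count. IP tags were higher at contractile than at other summits by median under every alternative for which tags were computed in both groups. For alternatives that removed summits or counted each gene once this order was fixed beforehand, because the tags did not overlap between the groups. It is therefore no sign of robustness. No paired analysis was possible because no value exists in a list outside its peaks, and each fold is already taken within a pair of IP and input.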
